A study of Mus musculus with 16 samples.

Results

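The late neutrophil granule genes are 10 genes whose products fill the secondary and tertiary granules of neutrophils or appear late in neutrophil maturation: *Ltf*, *Camp*, *Ngp*, *Lcn2*, *S100a8*, *S100a9*, *Cd177*, *Mmp8*, *Mmp9* and *Chil3*. They were chosen by symbol, not by their values, although earlier results of these data were known. All 10 were found among the 54347 genes of the deposited table. RNA was measured in LSKs (lineage-negative cells with Sca-1 and c-Kit, which hold stem cells and multipotent progenitors) and in GMPs (progenitors of granulocytes and monocytes, lineage-negative, with c-Kit and Cd16/32 and without Sca-1), both sorted from mouse bone marrow. The donors were WT mice and mice labelled URE, which are homozygous for a germline deletion of the upstream regulatory element of *Spi1*, the gene of the transcription factor PU.1. All were littermates on a C57BL/6 background, aged 8 to 12 weeks and otherwise untreated as far as the sources say, with 4 libraries per genotype and cell type, 16 in all.

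Neutrophils build their granules in sequence. Primary granules with myeloperoxidase and serine proteases form at the promyelocyte stage, and the secondary granules with lactoferrin and cathelicidin and the tertiary granules with gelatinase follow in myelocytes, metamyelocytes and band cells, under transcription factors of the C/EBP family. LSKs and GMPs precede these stages, so that late granule transcripts are minor components of their RNA. PU.1 acts in a dose-dependent way in blood cells, and high levels favour the macrophage fate. RUNX1 is among the factors that control its gene through the upstream regulatory element.

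Library totals lay between 20028302 and 29128858 counts. *Spi1* averaged 124 counts per 1000000 (CPM, counts scaled to the normalised library size) in WT LSKs and 3.02 CPM in URE LSKs, and 140 CPM in WT GMPs and 21.3 CPM in URE GMPs, with no overlap between genotypes. The cell types carried their markers: *Ly6a*, which encodes Sca-1, averaged 91.8 CPM in WT LSKs and 2.25 CPM in WT GMPs, and *Fcgr3*, which encodes CD16, averaged 10.9 CPM in WT LSKs and 322 CPM in WT GMPs. Levels of *Xist* and of Y-linked genes showed that WT replicates 1 to 3 and URE replicate 1 came from males and the others from females in both cell types, so that sex was alike between the genotypes in replicates 1 and 4 but not in replicates 2 and 3. Fits of replicates 1 and 4 alone are therefore given for the members called between genotypes in any fit of all 4 replicates, where they change the call of another gene named, and for the members they call.

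Of the 10 members, 4 lie on chromosome 9 of GRCm38. *Camp*, the cathelicidin gene (chr9:109847379-109849617), *Ngp* (chr9:110419747-110423012) and *Ltf*, the lactoferrin gene (chr9:111019271-111042767), fall within 1195389 bases of each other, and *Mmp8* (chr9:7558456-7568485) lies apart. *S100a8* (chr3:90668978-90670035) and *S100a9* (chr3:90692632-90695721) are neighbours separated by 22596 bases. *Chil3* is at chr3:106147554-106167564, *Lcn2* at chr2:32384633-32388252, *Mmp9* at chr2:164940780-164955850 and *Cd177* at chr7:24743983-24760311. All 10 are protein coding, and none shares exonic bases with another annotated gene, so that the unstranded reads are not divided with an antisense partner.

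The sequences before the start sites were read from a table of RefSeq promoters (GRCm38.p6), in which 9 of the 10 members were matched, all but *Mmp9*. The 250 bases upstream of each start were searched on both strands for the C/EBP pattern TTNNGNAA, the PU.1 core GAGGAA and the RUNX core TGTGGT. The matches found did not overlap each other. A C/EBP match was present in 8 of 9 members against 36.8% of 32851 promoters of the same length. A PU.1 match was present in 5 of 9, against 23.3% of all promoters, and a RUNX match in 1 of 9, against 14% of all promoters. *Camp* held none of the 3, in a window of which 161 of 250 bases lie in annotated exons. Such matches are letters in a window and were not tested for binding. The stretches before *Ngp* and *Cd177*, which were higher in URE cells of both kinds, and before *Mmp8* and *Chil3*, which were lower in URE GMPs, are given 5′ to 3′ along the strand of the gene. Capitals mark matches of any of the 3 patterns on either strand.
Ngp: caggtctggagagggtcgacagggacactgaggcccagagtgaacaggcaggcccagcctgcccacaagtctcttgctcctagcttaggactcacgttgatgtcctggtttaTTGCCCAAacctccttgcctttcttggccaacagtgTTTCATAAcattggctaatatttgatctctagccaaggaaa
Cd177: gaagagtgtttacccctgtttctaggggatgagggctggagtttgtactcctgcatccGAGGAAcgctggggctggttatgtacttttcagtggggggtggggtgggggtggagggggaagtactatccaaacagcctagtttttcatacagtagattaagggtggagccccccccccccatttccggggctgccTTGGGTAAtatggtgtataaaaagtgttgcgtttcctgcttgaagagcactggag
Mmp8: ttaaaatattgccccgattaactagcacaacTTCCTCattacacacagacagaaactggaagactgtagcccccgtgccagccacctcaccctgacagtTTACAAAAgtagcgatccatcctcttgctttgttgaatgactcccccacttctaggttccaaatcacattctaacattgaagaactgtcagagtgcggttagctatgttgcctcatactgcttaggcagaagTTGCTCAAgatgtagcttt
Chil3: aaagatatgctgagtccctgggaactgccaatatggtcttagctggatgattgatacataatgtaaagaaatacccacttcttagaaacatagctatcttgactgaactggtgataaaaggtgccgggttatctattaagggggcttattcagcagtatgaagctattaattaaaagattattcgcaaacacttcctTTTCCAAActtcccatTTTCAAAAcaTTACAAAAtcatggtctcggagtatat
The stretch of *Ngp* covers chr9:110419558-110419746 on the plus strand, and the 61 bases between it and the RefSeq start lie in an exon of GENCODE M21 and are not printed. That of *Cd177* covers chr7:24760312-24760561 on the minus strand, that of *Mmp8* chr9:7558179-7558428 on the plus strand and that of *Chil3* chr3:106167565-106167814 on the minus strand. *Ngp* and *Chil3* each held 3 C/EBP matches and no PU.1 match, with the third *Ngp* match inside the unprinted part. *Mmp8* held 2 C/EBP matches and 1 PU.1 match, and *Cd177* held 1 of each. The window of *Lcn2* held 1 of each as well, but 197 of its 250 bases lie in annotated exons, so that it is not printed.

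Abundances differed widely among the members. On a scale of CPM per kilobase of transcript, which allows genes of different length to be compared, *S100a8* had the highest mean level in WT LSKs with 49.3 ± 39.1 (SD, n = 4), followed by *Camp* with 24.1 ± 19.7, *Ngp* with 21.7 ± 12.6 and *S100a9* with 18.2 ± 15.9, and these 4 neighbours did not differ beyond their spread. *Ltf*, *Chil3*, *Lcn2* and *Cd177* had mean levels between 0.948 and 3.69 CPM per kilobase in these cells, and *Mmp8* and *Mmp9* were at 0.141 and 0.0899. *S100a8* also had the highest mean level in WT GMPs (67.5 ± 52.4) and URE GMPs (381 ± 210 CPM per kilobase), whereas *Ngp* ranked first in URE LSKs with 115 ± 32.6. *Mmp9* was last in all 4 groups. The 10 genes together made up between 0.00457% and 0.0217% of all counts in WT LSKs, 0.0215% to 0.0384% in URE LSKs, 0.00511% to 0.0153% in WT GMPs and 0.0226% to 0.101% in URE GMPs.

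**Figure D1:**
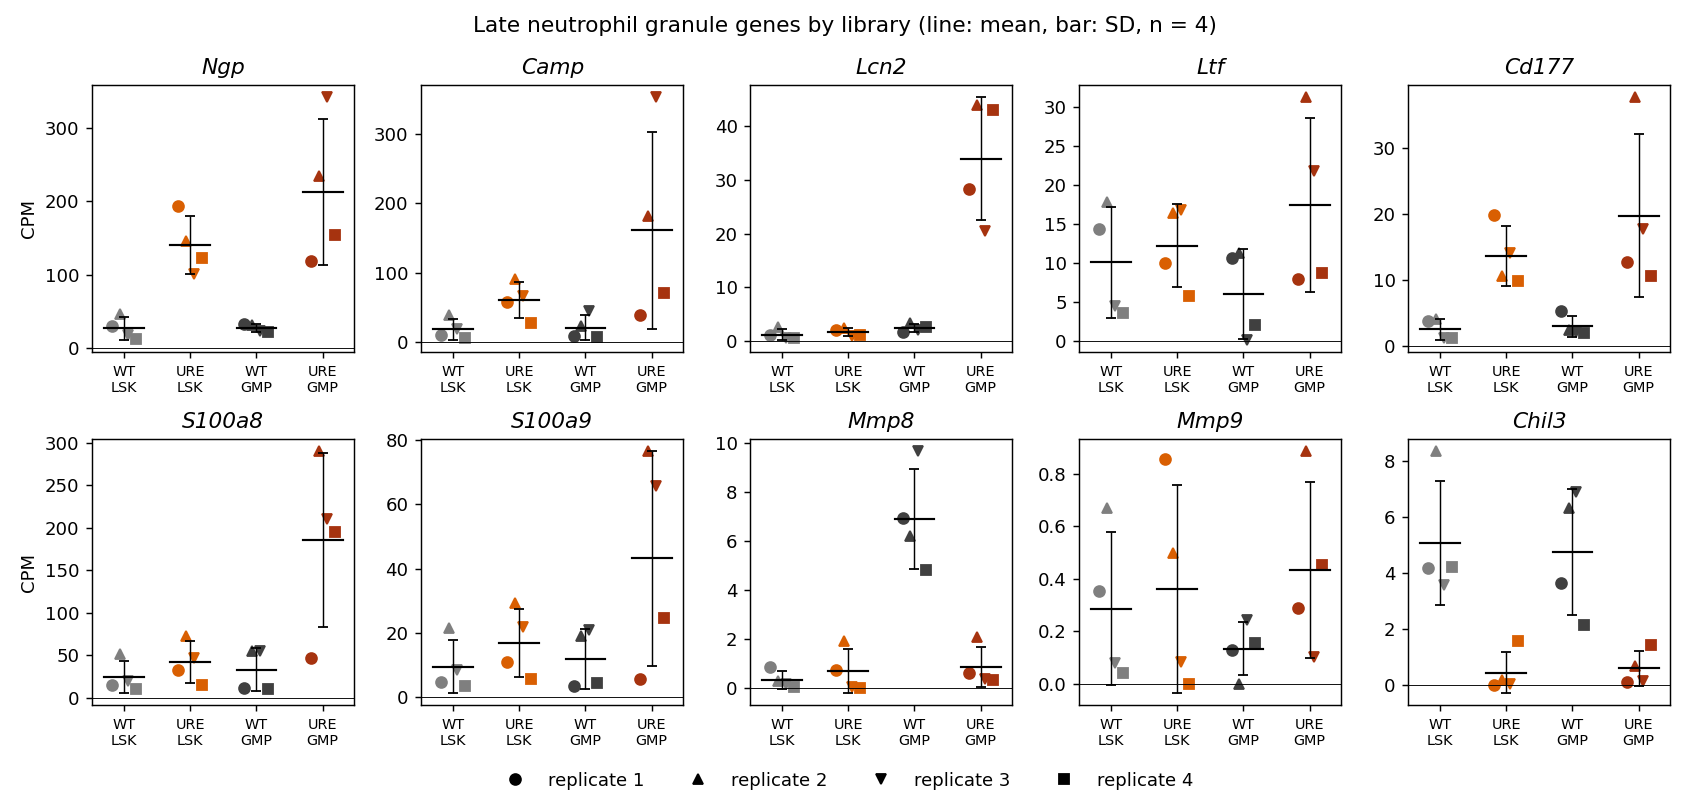
CPM of each member (vertical axis, linear, a separate scale per gene with a line at 0) in the 16 libraries by genotype and cell type, with points for libraries, marker shape for the replicate number, a line for the mean and a bar for the SD of 4 libraries. *Ngp* and *Cd177* stand above WT in all URE libraries of both cell types, *Lcn2* in URE GMPs, and *Mmp8* is above 4 CPM in WT GMPs alone.

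To find out how loss of the regulatory element changes the late granule genes in the stem cell compartment, URE LSKs were compared with WT LSKs. *Ngp* and *Cd177* rose, *Camp* was higher in all 4 pairs of same-numbered libraries and was called by DESeq2 and with the replicate block but not in the reported edgeR fit, and the levels of *Ltf* and *Lcn2* overlapped between the genotypes. Of the 8 members with enough counts to be tested, 2 were called higher and 0 lower (edgeR quasi-likelihood test, adjusted p below 0.05 and a fold change above 1.5), when 2.38% of the 15154 genes tested were called higher and 3.76% lower. At an unadjusted p below 0.05 in edgeR 3 members were higher and 1 lower, and DESeq2 called 3 higher and 1 lower. The median log2 fold change was 0.80 over these 8 members and 0.00 over all genes tested. With the replicate number as a block, 5 of the 8 were called higher and 1 lower, when 3.83% of all genes were called higher and 5.62% lower. The 1 lower member in these counts was *Chil3*. It reached the minimum for testing through the WT libraries, so that it is no count in support of a direction.

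*Ngp* encodes neutrophilic granule protein, a cystatin-like protein of the secondary granules. Its level was 30.5, 46.4, 17.3 and 11.97 CPM in WT LSKs 1 to 4 and 193, 146, 100.5 and 122 CPM in URE LSKs 1 to 4. All URE libraries were above all WT libraries, and the means differed 5.28-fold (log2 fold change 2.37 ± 0.41 SE, adjusted p = 0.00838, edgeR). *Cd177* encodes a surface glycoprotein that is stored in secondary granules and displayed on a subset of neutrophils. It measured 3.78, 4.09, 1.21 and 1.21 CPM in WT and 19.9, 10.6, 14.1 and 9.83 CPM in URE LSKs. The genotypes again did not overlap, at a log2 fold change of 2.37 ± 0.48 (adjusted p = 0.0186, edgeR). Without URE LSK replicate 1 the adjusted p of *Cd177* was 0.0524 in edgeR. In replicates 1 and 4 alone, where sex was alike, the log2 fold change was 2.85 for *Ngp* (adjusted p = 0.0202) and 2.52 for *Cd177* (adjusted p = 0.0665, edgeR).

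*Camp* encodes the cathelicidin antimicrobial peptide. Its levels were 9.36, 39.3, 18.2 and 6.13 CPM in WT and 57.2, 91.4, 66.7 and 27.8 CPM in URE LSKs. The lowest URE library lay below the highest WT library, and the log2 fold change of 1.71 ± 0.57 had an adjusted p of 0.144 in edgeR. Within each pair of same-numbered libraries the URE value was the higher one, and with the replicate block the adjusted p was 0.00205 (log2 fold change 1.93 ± 0.23). With no block the adjusted p was 0.0399 without WT LSK replicate 2 and 0.0213 in replicates 1 and 4 alone (log2 fold change 2.42) in edgeR, and 0.0283 over all 8 libraries in DESeq2.

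*S100a8* and *S100a9* encode the subunits of calprotectin, a calcium- and zinc-binding protein of the neutrophil cytosol. *S100a8* measured 14.2, 51.8, 19.9 and 9.99 CPM in WT and 32.4, 72.6, 47.0 and 15.3 CPM in URE LSKs. *S100a9* measured 4.68, 21.4, 8.32 and 3.30 CPM in WT and 10.96, 29.3, 21.8 and 5.69 CPM in URE LSKs. Both genes were higher in URE in each of the 4 pairs, yet their ranges overlapped broadly, and their log2 fold changes of 0.78 ± 0.57 and 0.82 ± 0.65 did not pass edgeR's test (adjusted p = 0.666 and 0.704). In the fit with the replicate block, the adjusted p was 0.0210 for *S100a8* and 0.0327 for *S100a9*. Without the block it was 0.239 and 0.234 in replicates 1 and 4 alone (edgeR).

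*Chil3* encodes Ym1, a chitinase-like protein made by neutrophil precursors and by monocytes and macrophages. It measured 4.17, 8.36, 3.55 and 4.19 CPM in WT LSKs and 0.166, 0.0421 and 1.55 CPM in URE LSKs 2 to 4. URE LSK 1 had 0 counts, which allows up to 0.117 CPM (3 counts). The highest URE library was below the lowest WT library, and the log2 fold change of -3.56 ± 1.08 had an adjusted p of 0.104 in edgeR, 0.0264 with the replicate block and 0.00641 without URE LSK replicate 4. The log2 fold change was -2.46 in replicates 1 and 4 alone (adjusted p = 0.322) and in replicates 2 and 3 alone -5.74 (adjusted p = 0.00678, edgeR). *Chil3* reached the minimum for testing through the WT libraries. *Chil4*, its near-identical neighbour, had 0 counts in all 16 libraries.

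*Lcn2*, which encodes neutrophil gelatinase-associated lipocalin, an iron-siderophore binding protein, had between 0.547 and 2.62 CPM in WT LSKs and between 0.843 and 2.45 CPM in URE LSKs (log2 fold change 0.39 ± 0.60, adjusted p = 0.908, edgeR). *Ltf* measured 14.4, 17.9, 4.57 and 3.67 CPM in WT and 10.1, 16.5, 16.9 and 5.77 CPM in URE LSKs, and its log2 fold change was 0.26 ± 0.55 (adjusted p = 0.944, edgeR). In both genes the genotypes overlapped almost completely. *Mmp8*, the neutrophil collagenase, and *Mmp9*, the gelatinase of the tertiary granules, had at most 58 and 22 counts in any LSK library and were not tested here.

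In GMPs, which give rise to promyelocytes and monocytes, the same comparison was made. *Ngp*, *Lcn2* and *Cd177* rose in URE GMPs. *Mmp8* and *Chil3* fell, both of which reached the minimum for testing through the WT libraries, so that their calls are no count in support of a direction. Of the 9 members tested, 3 were called higher, when 4.67% of the 13829 genes tested were, and 2 lower, when 3.63% were. The median log2 fold change was 2.47 over the 9 members and 0.01 over all genes tested. With the replicate block 6 members were called higher and 2 lower, when 9.52% of all genes were called higher and 6.82% lower. WT and URE did not overlap in 5 of the 9 members, 3 with URE higher and 2 with URE lower, when 7.85% and 6.98% of all genes were so arranged. In LSKs this held for 2 of 8 with URE higher and 1 of 8 with URE lower, when it held for 5.66% and 6.9% of all genes. The 1 lower in LSKs was *Chil3*, tested there through the WT libraries, so that it too is no count in support of a direction.

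**Figure D2:**
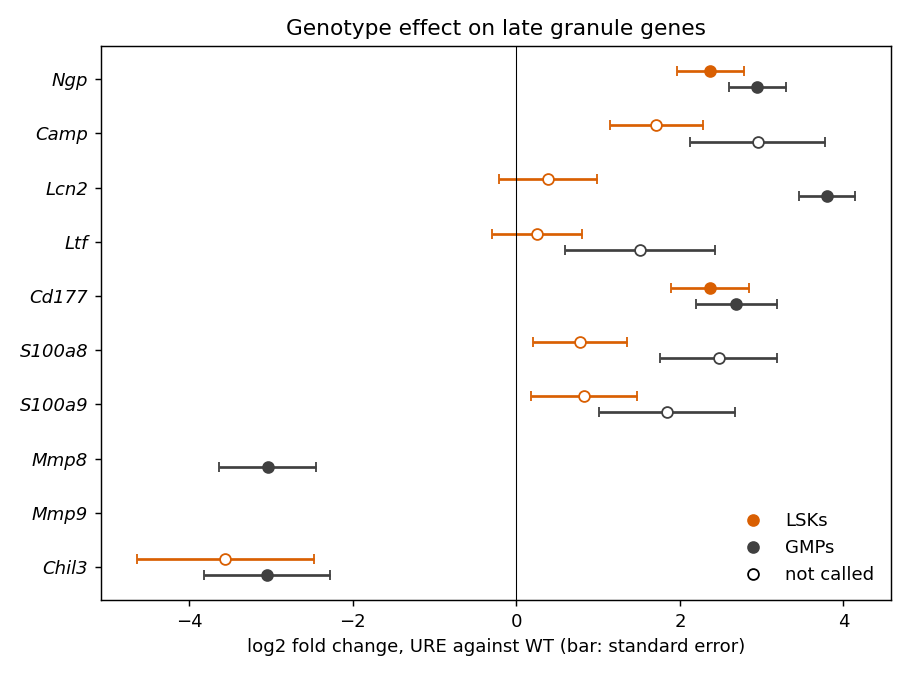
Log2 fold change of URE against WT (horizontal axis) for each member in LSKs (orange) and GMPs (dark grey) with its standard error from edgeR, from 4 libraries per group. Filled points passed the test without the replicate block and open points did not, and a member without a point was not tested in that cell type. Points of *Ngp*, *Cd177* and, in GMPs, *Lcn2*, *Camp* and *S100a8* lie above 2, and those of *Chil3* and *Mmp8* lie below -3.

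*Lcn2* had the largest change of the 9 members tested. Its levels were 1.65, 3.36, 2.05 and 2.59 CPM in WT GMPs and 28.3, 43.9, 20.6 and 43.0 CPM in URE GMPs. Every URE library was above every WT library, the means differed 14.1-fold, and the log2 fold change was 3.80 ± 0.34 (adjusted p = 0.000396, edgeR). In replicates 1 and 4 alone it was 4.06 (adjusted p = 0.00115, edgeR).

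*Ngp* measured 32.3, 31.9, 23.3 and 22.2 CPM in WT and 118, 235, 342 and 153 CPM in URE GMPs. The genotypes were fully separated, at a 7.74-fold difference of the means and a log2 fold change of 2.95 ± 0.35 (adjusted p = 0.00126, edgeR). *Cd177* measured 5.41, 2.53, 2.10 and 1.97 CPM in WT and 12.8, 37.7, 17.7 and 10.7 CPM in URE GMPs, also without overlap (log2 fold change 2.69 ± 0.50, adjusted p = 0.009998, edgeR). In replicates 1 and 4 alone the log2 fold change of *Ngp* was 2.30 (adjusted p = 0.00278, edgeR) and that of *Cd177* was 1.65 (adjusted p = 0.0775, edgeR).

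On the CPM scale, which does not adjust for transcript length, *Camp* reached the highest value of any member, 354 CPM in URE GMP 3. Its other URE GMP values were 38.1, 182 and 71.3 CPM in replicates 1, 2 and 4, and WT GMPs 1 to 4 had 8.97, 22.2, 44.8 and 6.38 CPM. URE GMP 1 lay below WT GMP 3, although URE was higher in all 4 same-numbered pairs. The log2 fold change of 2.95 ± 0.83 had an adjusted p of 0.0617 in edgeR and of 0.000262 with the replicate block. With no block *Camp* was called in replicates 1 and 4 alone (log2 fold change 2.82, adjusted p = 0.00453), without URE GMP replicate 1 (0.0446) and without WT GMP replicate 3 (0.0365) in edgeR, and by DESeq2 (adjusted p = 0.000840).

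*S100a8* measured 11.5, 55.0, 54.7 and 10.0 CPM in WT and 46.2, 290.5, 210 and 195 CPM in URE GMPs. *S100a9* measured 3.38, 19.0, 20.8 and 4.31 CPM in WT and 5.74, 76.7, 65.6 and 24.8 CPM in URE GMPs. In both genes URE GMP 1 lay within the WT range and the 3 other URE libraries above it. Their log2 fold changes of 2.47 ± 0.71 and 1.84 ± 0.83 had adjusted p values of 0.0684 and 0.256 in edgeR, and of 0.00312 and 0.00388 with the replicate block. Without URE GMP replicate 1 the adjusted p of *S100a8* was 0.0400 in edgeR without the block. *S100a8* was also called in replicates 1 and 4 alone (log2 fold change 3.47, adjusted p = 0.0153, edgeR) and by DESeq2 (adjusted p = 0.00280), and *S100a9* in neither.

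*Ltf* measured 10.7, 11.4, 0.196 and 2.08 CPM in WT and 8.05, 31.3, 21.9 and 8.73 CPM in URE GMPs. The groups overlapped, and neither fit called it (log2 fold change 1.51 ± 0.92, adjusted p = 0.424, and 0.172 with the replicate block, edgeR). WT GMP 3 stood lowest with 4 counts.

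*Mmp8* and *Chil3* went the other way. *Mmp8* measured 6.93, 6.19, 9.68 and 4.82 CPM in WT and 0.627, 2.09, 0.359 and 0.338 CPM in URE GMPs, with no overlap (log2 fold change -3.04 ± 0.59, adjusted p = 0.0130, edgeR). *Chil3* measured 3.64, 6.31, 6.89 and 2.13 CPM in WT and 0.0965, 0.679, 0.154 and 1.41 CPM in URE GMPs, also with no overlap (log2 fold change -3.05 ± 0.77, adjusted p = 0.0402, edgeR). Leaving out any 1 library other than URE GMP replicate 4 lost the call of *Chil3*, with adjusted p values from 0.0512 to 0.0976 in edgeR. In replicates 1 and 4 alone the log2 fold change was -3.59 for *Mmp8* (adjusted p = 0.00545) and -1.98 for *Chil3* (adjusted p = 0.259, edgeR). Neither gene was called in replicates 2 and 3 alone (adjusted p = 0.238 for *Mmp8* and 0.0918 for *Chil3*, edgeR) or in a joint fit of the 16 libraries, and both were called by DESeq2. *Mmp9* had at most 17 counts in any GMP library and was not tested.

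Whether the genotype effect differs between GMPs and LSKs was examined with an interaction term fitted to the 16 libraries. *Lcn2* passed, with an effect larger in GMPs by 3.40 ± 0.69 on the log2 scale (adjusted p = 0.0254, edgeR), 1 of 10 members tested when 0.866% of 15935 genes passed with a positive difference. It kept its call in 11 of the 16 fits that left out 1 library, and was called neither in replicates 1 and 4 alone (3.18, adjusted p = 0.0594) nor in replicates 2 and 3 alone (3.48, adjusted p = 0.812, edgeR). The replicate block added *Mmp8*, whose difference was -4.23 ± 1.15 (adjusted p = 0.0437, against 0.241 without the block, edgeR). *Mmp8* had 93 to 198 counts in WT GMPs and at most 58 in any other library. It was not tested between genotypes in LSKs, so that this call is no count in support of a direction. With the block 1 member passed in each direction, the negative one being *Mmp8*, when 3.97% of all genes passed with a positive and 2.6% with a negative difference. Without the block 0 members passed with a negative difference in edgeR, 1 at an unadjusted p below 0.05, and 0 in DESeq2. For *Ngp* and *Cd177* the differences were 0.55 ± 0.55 and 0.32 ± 0.70 (adjusted p = 0.841 and 0.966, edgeR), so that a difference between the cell types was not detected for these 2 genes. For the other members the differences, with adjusted p values between 0.560 and 0.978, ranged from 0.51 for *Chil3* to 1.69 for *S100a8*.

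Most primary granule genes rose from LSKs to GMPs, and the members were compared across this step in each genotype. In WT mice *Mmp8* was the member called. Of 9 members tested, 1 was called higher in GMPs and 0 lower, when 11.5% of 14767 genes were called higher and 15.8% lower. With the replicate block 2 were called higher, when 15.8% of genes were, and 0 lower, when 25.1% were. None of the 9 was lower at an unadjusted p below 0.05 in edgeR or by DESeq2. *Mmp8* rose from 0.865, 0.302, 0.156 and 0.0403 CPM in WT LSKs to the 4.82 to 9.68 CPM of WT GMPs given above (log2 fold change 4.28 ± 0.70, adjusted p = 0.00211, edgeR). It had 1 to 27 counts in WT LSKs and reached the minimum for testing through the WT GMPs. *Lcn2*, at 1.205 ± 0.975 CPM in WT LSKs and 2.41 ± 0.743 CPM in WT GMPs (SD, n = 4 each), had a log2 fold change of 0.98 ± 0.53 (adjusted p = 0.206, and 0.0312 with the replicate block, edgeR). It was higher in GMPs in all 4 pairs, and its adjusted p was 0.0269 without WT LSK replicate 2 in edgeR. The other 7 had log2 fold changes from -0.74 for *Ltf* to 0.44 for *S100a8*, with standard errors up to 0.95. *Ltf* was lower in GMPs in all 4 pairs. Of the 8 primary granule genes 6 were called higher in WT GMPs with a median log2 fold change of 4.26. Among them *Elane*, the gene of neutrophil elastase, was higher by 6.78 ± 0.34 and *Ms4a3* by 6.46 ± 0.43 on the log2 scale. *Ctsg* (cathepsin G) was higher by 6.02 ± 0.59 and *Mpo* (myeloperoxidase) by 5.67 ± 0.25. *Ms4a3* is counted in this list of 8 but encodes a membrane protein, not a granule protein.

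In URE mice 2 of 8 members tested were called higher in GMPs and 0 lower, when 9.2% of 14395 genes were called higher and 12.6% lower. None of the 8 was lower at an unadjusted p below 0.05 in edgeR or by DESeq2. *Lcn2* rose from 1.99, 2.45, 0.843 and 1.13 CPM in URE LSKs to 20.6 to 43.9 CPM in URE GMPs, 21.2-fold by the means (log2 fold change 4.35 ± 0.42, adjusted p = 0.000229, edgeR). *S100a8* rose 4.43-fold (log2 fold change 2.11 ± 0.58, adjusted p = 0.0273, edgeR), a call that was lost when URE GMP replicate 2, 3 or 4 or URE LSK replicate 1, 3 or 4 was left out, with adjusted p values from 0.0523 to 0.0731. *Mmp8* was not called here. Its levels were 0.741, 1.92 and 0.0421 CPM in URE LSKs 1 to 3 and 0 counts in URE LSK 4, which allows up to 0.125 CPM, against 0.338 to 2.09 CPM in URE GMPs (log2 fold change 0.28 ± 1.15, adjusted p = 0.886, edgeR). *Ngp*, *Camp*, *Cd177*, *S100a9* and *Ltf* had log2 fold changes between 0.47 and 1.38 with adjusted p values of 0.157 or more. Of the 8 primary granule genes, 7 were called higher in URE GMPs, with a median log2 fold change of 5.58.

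**Figure D3:**
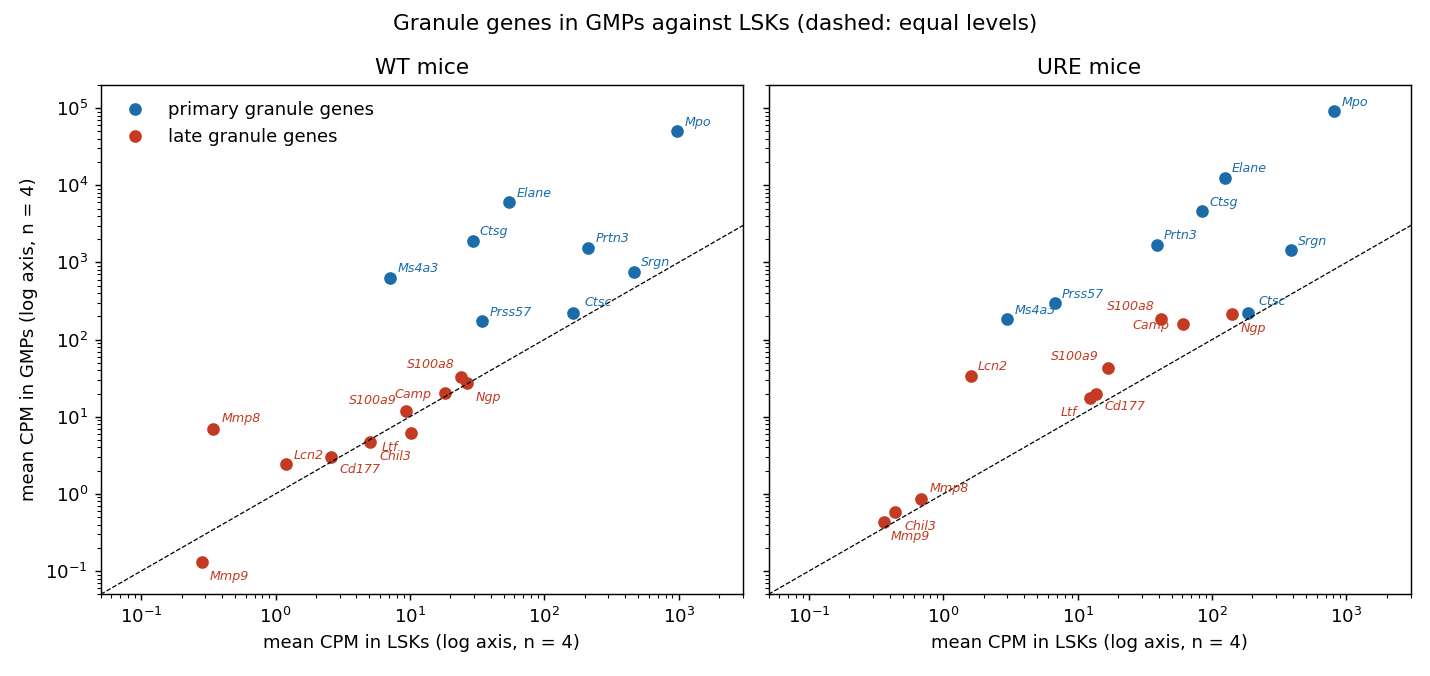
Mean CPM in GMPs (vertical log axis) against LSKs (horizontal log axis) in WT and URE mice for the 10 late granule genes (red) and the 8 genes of the primary granule list, *Ms4a3* included (blue), each point the mean of 4 libraries and the dashed line equal levels. In WT, *Mmp8* is the late gene farthest above the line, and in URE mice this place is taken by *Lcn2*.

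*S100a8* and *S100a9* RNA kept a nearly fixed proportion in most libraries. Per kilobase, *S100a8* was 2.55 to 3.25 times as abundant as *S100a9* in WT LSKs, 2.31 to 3.16 times in URE LSKs and 2.48 to 3.64 times in WT GMPs. In URE GMPs the ratio was 4.04 and 3.42 in replicates 2 and 3 but 8.59 and 8.39 in replicates 1 and 4. These 2 libraries held 119 and 440 counts of *S100a9* and 957 and 3456 counts of *S100a8*. Salmon assigns reads by transcript, and the annotation gives the genes no shared exonic bases.

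**Figure D4:**
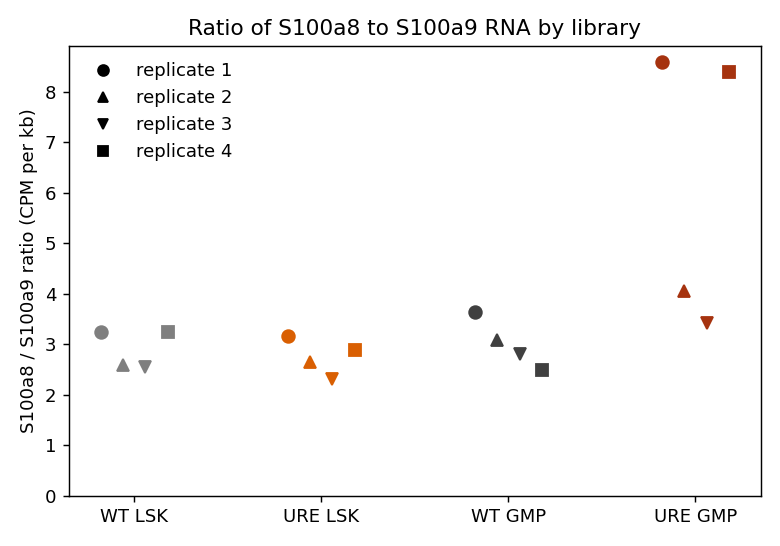
Ratio of *S100a8* to *S100a9* RNA (vertical axis, both as CPM per kilobase of transcript, from 0) in each of the 16 libraries by group, with marker shape for the replicate number. URE GMPs 1 and 4 lie above 8 and all other libraries at or below 4.04.

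Replicates 2 and 3 were both higher than replicates 1 and 4 in all 4 groups for *Camp*, *S100a8* and *S100a9*, in 2 groups for *Ltf* and in 1 group each for *Ngp*, *Cd177* and *Chil3*. The labels do not say what sets these replicates apart. Over the 16 libraries, Pearson's r between the log2 CPM of a member and the mean of the other members was 0.89 for *S100a8*, 0.81 for *Camp*, 0.79 for *S100a9*, 0.75 for *Lcn2*, 0.74 for *Ngp*, 0.71 for *Cd177*, 0.49 for *Mmp9*, 0.40 for *Ltf*, 0.02 for *Mmp8* and -0.55 for *Chil3*. These values describe libraries that share genotype, cell type and replicate number. Of 9072 other genes expressed at 3 log2 CPM or more on average, those most alike in pattern to the mean of the members were *Crem* (r = 0.88), *Wdr92* (0.86), *Cisd3* (0.84), *Preb* (0.83) and *Odr4* (0.82). *Crem*, which encodes a cAMP-responsive transcription factor, averaged 8.66 CPM in WT LSKs, 12.5 CPM in URE LSKs, 7.55 CPM in WT GMPs and 22.1 CPM in URE GMPs.

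Of 15 other granule and late neutrophil genes, 12 were tested in LSKs, with 3 called higher in URE and 1 lower, when 2.38% and 3.76% of all genes were. In GMPs 13 were tested, with 4 higher and 1 lower, when 4.67% and 3.63% of all genes were. With the replicate block 4 were higher and 2 lower in LSKs, when 3.83% and 5.62% of all genes were. In GMPs the block gave 7 higher and 2 lower, when 9.52% and 6.82% of all genes were. DESeq2 called 6 higher and 1 lower in LSKs. *Lrg1*, a granule glycoprotein gene, was higher by 2.66 ± 0.38 in URE LSKs and 2.44 ± 0.35 in URE GMPs on the log2 scale, *Slpi*, which encodes a protease inhibitor, by 1.60 ± 0.31 and 2.45 ± 0.34, and *Hp* (haptoglobin) by 2.08 ± 0.29 and 1.68 ± 0.25. *Cfp*, the properdin gene, was lower in URE, with log2 fold changes of -2.54 ± 0.22 in LSKs and -2.51 ± 0.36 in GMPs. The median log2 fold change of this list was 1.10 in LSKs and 1.11 in GMPs. For the primary granule genes the calls in LSKs went in both directions. Among 8 tested in LSKs, *Elane* was called higher in URE (1.15 ± 0.28) and *Prtn3* (proteinase 3) and *Prss57* lower (-2.48 ± 0.34 and -2.38 ± 0.19). Among 8 in GMPs only *Ms4a3*, the gene of a membrane protein in this list, was called in the reported edgeR fit, lower in URE (-1.83 ± 0.48). Of the 8, 6 had positive log2 fold changes in GMPs. In GMPs 5 were higher and 1 lower at an unadjusted p below 0.05 in edgeR. DESeq2 called 2 higher and 2 lower in LSKs, and 2 higher and 1 lower in GMPs. The adjusted p in LSKs was 0.107 for *Elane* and 0.0540 for *Slpi* in replicates 1 and 4 alone, and in replicates 2 and 3 alone it was 0.143 and 0.179 (edgeR). With the replicate block 4 primary granule genes were called higher in URE GMPs and 1 lower, when 9.52% and 6.82% of all genes were.

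Relatives and partners of the members, 22 genes, showed 0 called higher in URE and 1 lower among 17 tested in LSKs, when 2.38% and 3.76% of all genes were, with 2 higher and 4 lower at an unadjusted p below 0.05 in edgeR and 1 higher and 3 lower by DESeq2. In GMPs 3 of 14 were called higher and 1 lower, when 4.67% and 3.63% of all genes were. With the replicate block 0 were called higher and 3 lower in LSKs, when 3.83% and 5.62% of all genes were. In GMPs the block gave 6 higher and 1 lower, when 9.52% and 6.82% of all genes were. The gene lower in LSKs without the block was *Trf*, which encodes transferrin, a homologue of lactoferrin (log2 fold change -1.45 ± 0.17). In GMPs *Mmp13*, another collagenase gene, was called higher in URE. It had 26 to 80 counts in URE libraries against 0 to 5 in WT libraries, so that it was tested through the URE libraries. *Mmp2*, a gelatinase gene, was lower (-3.76 ± 0.68). It had 1 to 10 counts in URE libraries against 24 to 143 in WT libraries, so that it was tested through the WT libraries. Neither call is a count in support of a direction. *Cd9* and *Pecam1*, which encodes a binding partner of CD177, were higher by 1.13 ± 0.16 and 0.98 ± 0.19.

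Of 9 regulators of the neutrophil programme, *Irf8*, which favours monocytes over neutrophils, was the one called in both cell types. It was lower in URE, with log2 fold changes of -3.19 ± 0.36 in LSKs (adjusted p = 0.000947, edgeR) and -2.51 ± 0.64 in GMPs (adjusted p = 0.0428, edgeR). The value in GMPs varied with 1 library, since *Irf8* was 129 CPM in URE GMP 2 and 16.04 to 27.1 CPM in the others. It was -3.78 in replicates 1 and 4 alone (adjusted p = 0.000410) and -1.54 in replicates 2 and 3 alone (adjusted p = 0.517, edgeR). *Klf5* was higher in URE GMPs by 1.87 ± 0.43 (adjusted p = 0.0287, edgeR), a call not made in replicates 1 and 4 alone (0.0546) or 2 and 3 alone (0.413). *Cebpe*, the C/EBP factor that drives secondary granule genes, had log2 fold changes of 1.03 ± 0.40 in LSKs and 0.69 ± 0.27 in GMPs (adjusted p = 0.222 and 0.179, edgeR). *Cebpe*, *Gfi1* and *Csf3r*, the receptor of G-CSF, were called higher in URE GMPs with the replicate block (adjusted p = 0.0250, 0.0454 and 0.00445, edgeR). With the block 4 of 9 regulators were higher and 1 lower in GMPs, when 9.52% and 6.82% of all genes were. Without it 1 was higher and 1 lower, when 4.67% and 3.63% of all genes were. In LSKs edgeR called 0 of 8 higher and 1 lower, when 2.38% and 3.76% of all genes were. *Cebpb* was tested in GMPs only. *Cebpa*, *Cebpb*, *Cebpd* and *Runx1* were not called, with log2 fold changes in GMPs between -0.35 and 0.28. In LSKs *Cebpa* had a log2 fold change of -1.44 ± 0.65 and *Gfi1* of -1.29 ± 0.73 (adjusted p = 0.336 and 0.5005, edgeR), both lower in URE in 4 of 4 pairs. *Runx1* in LSKs was 72.5 to 94.9 CPM in WT and 40.4 to 65.4 CPM in URE, without overlap (log2 fold change -0.65 ± 0.19, adjusted p = 0.0970, edgeR).

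Markers of neighbouring cell types were measured beside the members, since in bulk RNA a change in the number of cells of a type and a change in RNA per cell cannot be told apart. The summed level of 9 mature neutrophil markers was 4.88 to 7.12 CPM in WT LSKs and 3.22 to 6.99 CPM in URE LSKs, and of the 5 tested in LSKs 0 were called in edgeR with or without the block and 0 in DESeq2, with 1 lower at an unadjusted p below 0.05 in edgeR. In GMPs the sum was 32.6 to 45.9 CPM in WT and 62.4 to 134 CPM in URE, and 3 of 5 tested were called higher in URE, when 4.67% of all genes were, *Retnlg* (18 to 22 counts in URE against 0 to 4 in WT, and tested through the URE libraries), *Wfdc21* (2.62 ± 0.69) and *Trem1* (1.78 ± 0.32). Levels differed among these markers. *Ly6g* had at most 9 counts in any library, and *Fpr2* and *Stfa2l1* had at most 3. *Cxcr2* averaged 16.9 CPM in WT GMPs and 14.02 CPM in URE GMPs, and *Trem1* 17.7 CPM and 61.2 CPM. The lineage stain of the sort included Gr1, an antibody against Ly6G and Ly6C. The 8 monocyte or macrophage markers summed to 98.0 to 144 CPM in WT LSKs against 24.5 to 44.1 CPM in URE LSKs. There 4 of 8 were called lower, when 3.76% of all genes were, and 0 higher. In GMPs the sum was 1743 to 2256 CPM in WT against 415 to 1900 CPM in URE. Of the 8, 6 were called lower in GMPs, when 3.63% of all genes were, and 0 higher. *Ly6c2* had the 1 positive log2 fold change among the 8 in each cell type. It averaged 4.17 CPM in WT and 7.60 CPM in URE LSKs, and 306 CPM in WT and 631 CPM in URE GMPs. The 6 markers of basophils, mast cells or eosinophils summed to 27.8 to 43.7 CPM in WT LSKs and 90.7 to 157 CPM in URE LSKs, with 2 of 4 tested called higher, when 2.38% of all genes were, and in GMPs 1 of 6 was called higher and 3 lower, when 4.67% and 3.63% of all genes were. The 5 B cell markers summed to 58.6 to 84.6 CPM in WT LSKs and 25.0 to 36.9 CPM in URE LSKs. In GMPs their sum was 62.2 to 90.5 CPM in WT and 10.9 to 26.2 CPM in URE. The 5 T or NK cell markers summed to 563 to 977 CPM in WT GMPs and 1353 to 2228 CPM in URE GMPs. Nearly all of this sum was *Nkg7*, which averaged 804 CPM in WT and 1711 CPM in URE GMPs. *Klrb1c* averaged 0.958 and 1.22 CPM there. *Cd3e* and *Trac* had at most 3 counts in any library, and *Cd3d* at most 11. Sums of megakaryocyte and of erythroid markers overlapped between the genotypes in both cell types. In LSKs 1 of 3 megakaryocyte markers tested was called higher in URE, when 2.38% of all genes were, and 0 lower. Of 6 erythroid markers tested in LSKs, 1 was called lower, when 3.76% of all genes were, and 0 higher. The lower one was *Hbb-bt*, which averaged 39.9 CPM in WT and 1.74 CPM in URE LSKs, while 3 of the 6 had positive log2 fold changes. In GMPs 0 markers of either list were called. The part of these cell types in the results for the members was not tested.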

How the data were processed

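RNA from up to 10 ng per sorted population was sequenced as unstranded, paired-end poly(A) libraries without molecular identifiers. The authors quantified transcripts with Salmon on GRCm38 and deposited estimated counts per gene, rounded to whole numbers. The annotation release used for these libraries is not given in the sources used here, which name one for the single-cell data of the study only. GENCODE M21 was used for positions and lengths, and held 54094 of the 54347 gene identifiers. Totals of 20028302 to 29128858 counts per library limit precision to counting error and the spread of 4 libraries.

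Groups came from the sample labels. Each comparison was fitted on its own 8 libraries, and the interaction on all 16, with edgeR 4.0.16 in R 4.3.3 (TMM factors, filterByExpr, quasi-likelihood test, Benjamini-Hochberg adjustment over all genes tested). A call needed an adjusted p below 0.05 and a fold change above 1.5, and for the interaction the adjusted p alone. Standard errors come from each log2 fold change divided by the root of its F statistic. CPM used the TMM-normalised library sizes, and correlations across libraries were taken on log2 CPM (prior count 2). A count of 0 was given an upper limit of 3 counts, which covers counting error only. The fits were tested on simulated data.

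Libraries with the same replicate number deviated together from their group means in every pair of every comparison (correlations over genes of 0.28 to 0.59 in LSKs, 0.24 to 0.55 in GMPs, 0.42 to 0.71 in WT and 0.38 to 0.52 in URE), so the numbers, which come from the labels, were taken as pairs, and a fit with the replicate as a block is given beside results it changes. Libraries of different number within the sets 1 and 4 or 2 and 3 also correlated (means of 0.22 to 0.26), and libraries of different sets did so negatively (means of -0.39 to -0.32). Deviations from a group mean cancel out, so that the negative values follow from the positive ones and are no separate evidence. The methods of the study state that, where an experiment took several days, each day held replicates of every condition, but not whether this one did. The labels do not say whether LSKs and GMPs of the same number came from the same mouse. Alternatives were RLE and upper-quartile factors, DESeq2 1.42.0, other filters and thresholds, a joint fit and leaving out libraries. Named genes were all 10 members, all listed regulators and, of other lists, up to 4 called genes with the largest changes. *Chil4*, *Ly6g*, *Fpr2*, *Stfa2l1*, *Cxcr2*, *Ly6c2*, *Klrb1c*, *Cd3d*, *Cd3e* and *Trac* were named after their values were seen. The members and lists were chosen with earlier results of these data known.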

Additional observations from a re-analysis of the deposited data

Results flagged for a closer look

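In 4 of 40 groups of 4 libraries tested, 1 library of a member stood apart from the other 3 by Dixon's test, when chance flags about 2 of 40. *Cd177* was 5.41 CPM in WT GMP 1 against at most 2.53 CPM in the others. *Mmp8* was 2.09 CPM in URE GMP 2, above 0.627 CPM or less in the other URE GMPs. *Chil3* was 8.36 CPM in WT LSK 2 and 1.55 CPM in URE LSK 4, in each case the highest of its group. The genotype effect on *Lcn2* differed between GMPs and LSKs by 3.40 on the log2 scale, by the interaction test.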

How the results depend on the processing

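Counts of members called moved as follows. For members higher in URE LSKs, 2 in the reported fit, the count was 1 at an adjusted p below 0.01, 5 with the replicate block and 1 in replicates 2 and 3 alone, and 1 to 3 when 1 library was left out. For members lower in URE LSKs, 0 in the reported fit, it was 1 in the joint fit, with the block, in DESeq2 and in replicates 2 and 3 alone, and 0 to 1 without 1 library. For members higher in URE GMPs, 3 in the reported fit, it was 5 without a filter, in the joint fit, in DESeq2 and in replicates 2 and 3 alone, 6 with the block, and 3 to 5 without 1 library. For members lower in URE GMPs, 2 in the reported fit, it was 0 at an adjusted p below 0.01, in the joint fit and in replicates 2 and 3 alone, 1 in replicates 1 and 4 alone, and 1 to 2 without 1 library. Between WT GMPs and LSKs it was 1, 2 with the block, and 1 to 2 without 1 library. Between URE GMPs and LSKs it was 2, 1 at an adjusted p below 0.01, 4 in replicates 2 and 3 alone, and 1 to 2 without 1 library. For the interaction the positive count of 1 was 0 at an adjusted p below 0.01 and in either set of 2 replicates, and 0 to 1 without 1 library, and the negative count of 0 was 1 with the block.

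Directions reversed for values that were not called. In replicates 1 and 4 alone these were *Ltf* in LSKs (-0.23), *Camp* (-0.013), *S100a8* (-0.17) and *S100a9* (-0.059) between WT GMPs and LSKs, *Ngp* (-0.20) and *Cd177* (-0.32) between URE GMPs and LSKs, and the interaction of *Ngp* (-0.57) and *Cd177* (-0.90). Between WT GMPs and LSKs *Ngp* was -0.055 with upper-quartile factors, and in replicates 2 and 3 alone *Ngp* was -0.12, *Cd177* -0.11 and *Chil3* 0.23. With 1 library left out, *Ltf* in LSKs ranged from -0.026 to 0.69. Between WT GMPs and LSKs the ranges were -0.50 to 0.87 for *Camp*, -0.21 to 0.45 for *Ngp*, -0.039 to 1.12 for *S100a9*, -0.18 to 0.53 for *Cd177* and -0.29 to 0.25 for *Chil3*. Between URE GMPs and LSKs they were -0.0065 to 0.76 for *Cd177* and -0.63 to 1.68 for *Mmp8*, and for the interaction -0.22 to 0.73 for *Cd177* and -0.44 to 2.99 for *Chil3*. The cause was not tested. Members near the floor in some libraries, *Mmp9* in all groups, *Mmp8* in WT LSKs and URE cells and *Chil3* in URE cells, are limited by depth there.

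The replicate block added 9 calls among the members, each given with its result, and changed no other call. RLE factors and the stricter filter changed no call of a member, and all scalings moved the median of all genes by less than 0.1 on the log2 scale. Counts over all genes moved more than 1.5 times in some settings. Genes higher in URE LSKs numbered 360 in the reported fit, 581 with the block, 677 in DESeq2, 148 at an adjusted p below 0.01 and 157 in replicates 2 and 3 alone, and genes lower 570, against 955 in DESeq2, 275 and 229. In GMPs 646 were higher, against 1317 with the block, 1112 in DESeq2, 287 and 56, and 502 lower, against 943, 887, 238 and 52. Between WT GMPs and LSKs 1702 higher became 938 at the stricter p, and 2335 lower became 1349 there, 3706 with the block and 1230 in replicates 2 and 3. Between URE GMPs and LSKs 1325 higher became 672, 363 in replicates 2 and 3 and 2034 in replicates 1 and 4, and 1808 lower became 923 and 447. For the interaction 138 positive became 632 with the block, 416 in DESeq2, 40 and 1, and 56 negative became 415, 258, 10 and 1, with 36 without a filter and 37 in replicates 1 and 4. With 1 library left out, 206 to 353 genes were higher and 359 to 608 lower in URE LSKs. In URE GMPs 395 to 638 were higher and 320 to 538 lower. The interaction then gave 66 to 188 positive and 18 to 95 negative.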
